A study of Mus musculus with 32 samples.

Results

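Cathepsins and legumain are proteases of the lysosome, and 10 of their genes are described here in quadriceps muscle: Ctsa, Ctsb, Ctsc, Ctsd, Ctsh, Ctsk, Ctsl, Ctss, Ctsz and Lgmn. They were selected by gene name among the 53801 gene IDs of the deposited tables. Each name matched 1 ID in every table, and all 10 passed the filter on low values that left 12817 genes for testing. The muscles came from 32 mice. Each mouse was either wild type (WT) or Col6a2-/-, 5 or 25 weeks old, and female or male, which gave 8 groups of 4 mice with 1 library per mouse. Col6a2-/- mice were homozygous for the tm1(KOMP)Vlcg allele of Col6a2, a gene that encodes one chain of collagen VI of the extracellular matrix. The allele came from a C57BL/6N strain and was then bred onto C57BL/6J over 5 backcrosses, and the WT mice were offspring of the same heterozygous breeders. The allele is not restricted to a cell type by its labels, and RNA was taken from sections of whole frozen muscle, so every cell type of the tissue contributed.

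Lysosomal proteases are made as inactive precursors, tagged with mannose 6-phosphate, and delivered to the acidic lysosome, where they are activated and degrade proteins from autophagy and endocytosis. Muscle fibres use them to clear proteins and organelles. Macrophages, which engulf debris of damaged fibres, hold large amounts of them, and antigen-presenting cells use some of them to prepare class II antigen complexes. Cystatins and some serpins limit the activity of the cysteine proteases of the lysosome. Many lysosomal protease genes carry an E box that is bound by TFEB and TFE3.

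The values are TPM, a transcript level scaled for transcript length and to the same total in every library. Changes are differences of log2(TPM + 1) between group means with their standard error (SE) from limma. A gene is said to be called when its Benjamini-Hochberg adjusted p over all 12817 tested genes was under 0.05. The sexes were weighted equally where a comparison covers both. The ratio of coverage to FPKM, a relative measure of depth, ran from 6.78 to 13.7 over the libraries, with medians of 11.1 in WT and 8.95 in Col6a2-/- at 5 weeks and 7.58 and 8.44 at 25 weeks. Mitochondrial genes took 31.9% to 46.9% of the TPM and the Rn7s small RNAs 20.8% to 30.5%. Col6a2 itself ran from 6.60 to 51.2 TPM in WT libraries and reached at most 0.171 TPM in Col6a2-/- libraries, so no library went against its genotype label. The summed level of 16 muscle fibre markers, such as Acta1 and Ckm, was at least 37382.5 TPM in every library.

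The levels of the 10 genes spanned a wide range. By mean TPM over the 8 groups, Ctsd stood at 158, Ctsb at 51.5 and Ctsl at 36.2, and each of these was above the next gene in 32 of 32 libraries. Ctsc (17.6), Lgmn (16.0), Ctsa (14.7), Ctsz (12.6), Ctss (11.7), Ctsh (8.27) and Ctsk (7.15) followed, and among them no gene was above its neighbour in every library. Lgmn was above Ctsa in 12 of 32 libraries, so that pair had no fixed order. The place of Ctss differed by group: its mean of 4.64 TPM was the lowest of the 10 in WT at 5 weeks, and its mean of 25.0 TPM in Col6a2-/- at 5 weeks was close to the 24.4 TPM of Ctsc. The spread between libraries differed by gene: the highest library exceeded the lowest by 1.77 times for Ctsd, the most even gene, against 10.6 times for Ctss. Together the 10 genes summed to a median of 283 TPM in WT and 438 TPM in Col6a2-/- mice at 5 weeks, and to 287 and 328 TPM at 25 weeks.

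On the mouse genome build GRCm38, the most abundant gene, Ctsd, lies at chr7:142375911-142388038, and it encodes the main aspartic protease of the lysosome. Ctsb, at chr14:63122462-63145923, and Ctsl, at chr13:64359337-64370890, encode widely expressed cysteine endopeptidases. Ctsa, at chr2:164832873-164841032, encodes a serine carboxypeptidase that also protects β-galactosidase and a neuraminidase. Ctsc, at chr7:88278085-88310888, encodes a dipeptidyl peptidase that activates serine proteases of immune cells. Ctsh, at chr9:90054152-90076089, encodes an aminopeptidase, and Ctsz, at chr2:174427493-174439039, a carboxypeptidase. Ctss, at chr3:95526786-95556403, encodes the cysteine protease that trims the invariant chain in antigen-presenting cells. Ctsk, at chr3:95499256-95509362, encodes a collagen-degrading cysteine protease best known from osteoclasts. These last genes are neighbours on the same strand, 17423 bases apart. Lgmn, at chr12:102394084-102439813, encodes legumain, an asparaginyl endopeptidase that processes other cathepsins. The same start and end were found for all 10 in GENCODE M21. Exons of Ctsa, Ctsb, Ctsl and Ctsz overlap another gene on the opposite strand, Ctsl also overlaps a pseudogene on its own strand, and 34.4% of the exon bases of Ctsd are shared with Gm49369 on the same strand. Gm49369 was listed at 0 to 22.0 TPM, so the division of reads between it and Ctsd is uncertain.

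**Figure D1:**
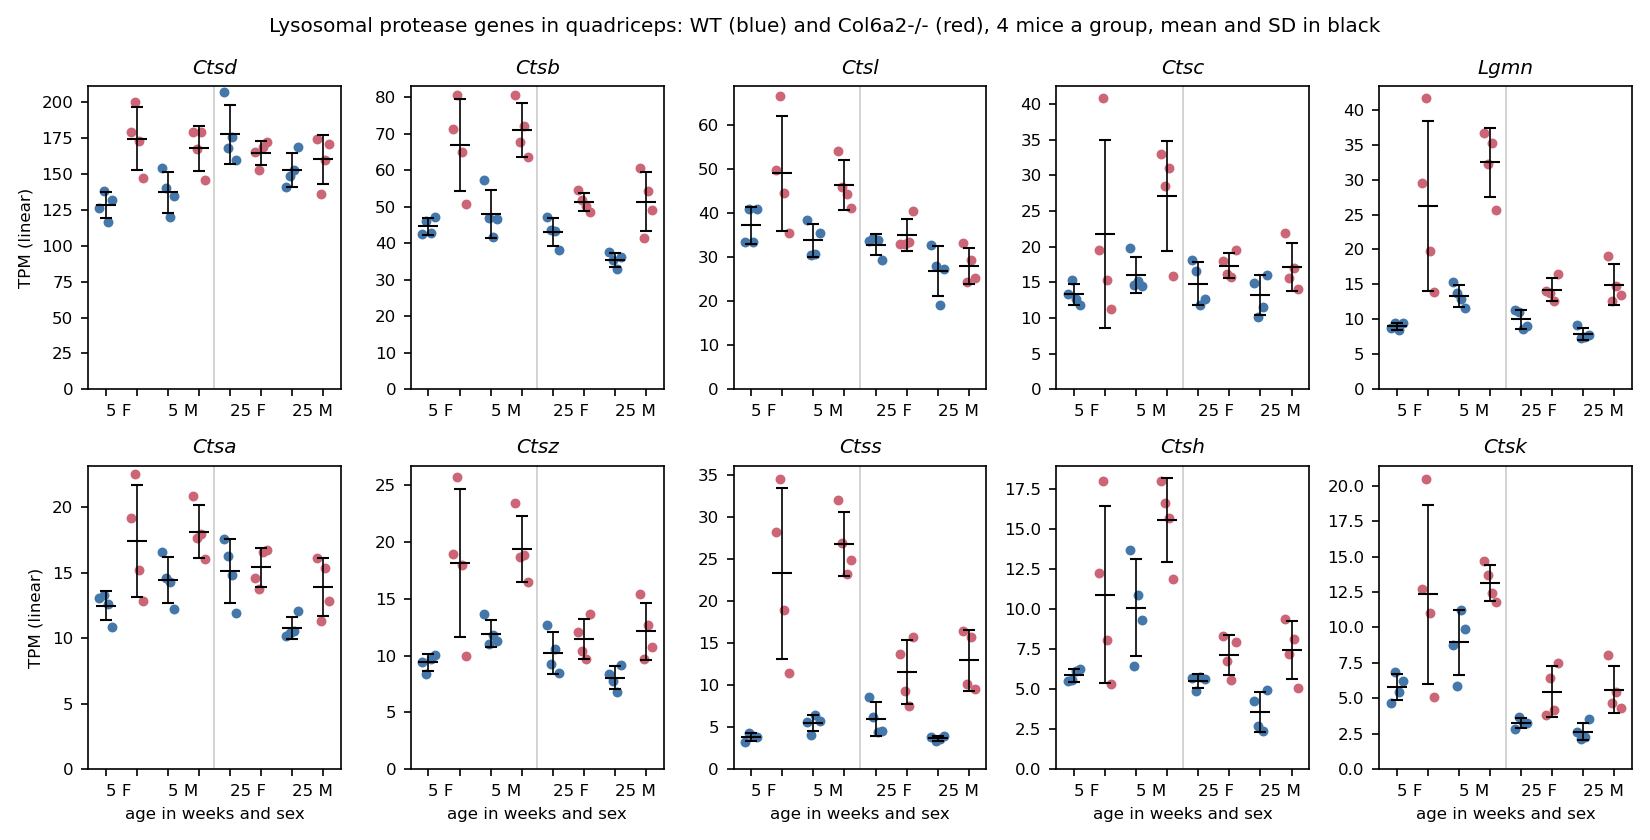
Level of each of the 10 genes in TPM (vertical axis, linear, from 0) in 32 mice by age and sex (horizontal axis), with WT in blue, Col6a2-/- in red, and the mean and SD of 4 mice in black. At 5 weeks all 8 Col6a2-/- mice are above every WT mouse for Ctss, and 7 of 8 for Lgmn. Ctsd stays between 117 and 207 TPM in every mouse.

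The promoters are shown because many, though not all, lysosomal protease genes are known to carry the E box. RefSeq (GRCm38.p6) gave 10 promoter windows of 300 bases for 8 of the 10 genes, and none was at hand for Ctsb and Ctsh. The E box CACGTG, which reads the same on both strands and is bound by TFEB and TFE3, was found in Ctsa, Ctsd, Ctsl and Lgmn, in 1 of 2 promoters for Ctsa and Lgmn. It occurs in 7.15% of all 32851 promoters of the same length, and 8.09% of 27025 gene symbols have a promoter with it. The E box is in capitals below, on the strand of the gene, and it begins 12 bases upstream of the start site in Ctsa (chr2:164833751-164833772, plus strand), 98 and 245 in Ctsd (chr7:142387910-142387935 and chr7:142388057-142388077, minus strand), 236 in Ctsl (chr13:64370741-64370766, minus strand) and 49 in Lgmn (chr12:102439126-102439151, minus strand).
Ctsa: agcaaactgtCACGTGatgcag
Ctsd nearer site: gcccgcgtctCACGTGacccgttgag
Ctsd farther site: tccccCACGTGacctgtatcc
Ctsl: cgttagaagcCACGTGctgatctaaa
Lgmn: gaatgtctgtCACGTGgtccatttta
The same Ctsa window holds a further E box 5 bases after the start site, not printed here. A core of the kind bound by PU.1, the factor of myeloid cells encoded by Spi1, was searched as GAGGAAG on both strands. It was found in Ctsc, Ctsk and Ctss, in 13.6% of all promoters and for 15.4% of gene symbols. The match nearest to the start site begins 150 bases upstream in Ctsc (chr7:88277925-88277951, plus strand) and 59 in Ctsk (chr3:95499141-95499167, plus strand), in both as its reverse complement, shown in capitals. In Ctss it begins 1 base upstream.
Ctsc: cactaactaaCTTCCTCaggccacctc
Ctsk: aatgtgtgtcCTTCCTCcctaacccct
No promoter window of a member held both motifs, and Ctsz held neither. A match describes these letters only.

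The first question was how the family differed between genotypes in young mice. At 5 weeks all 10 genes rose in Col6a2-/- quadriceps, by 0.36 to 2.17 on the log2 scale with a median of 0.62. Over all tested genes the median was 0.15, and 2979 of 12817 (23.2%) were called higher. Ctss and Lgmn rose most, Ctsk, Ctsz, Ctsh, Ctsc and Ctsb rose by 0.56 to 0.73, and Ctsl, Ctsa and Ctsd rose by 0.36 to 0.40.

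Ctss was low in WT, with 3.26 TPM in the lowest, 4.20 in the median and 6.40 in the highest of 8 mice at 5 weeks. In Col6a2-/- mice of that age the lowest, median and highest were 11.4, 25.8 and 34.5 TPM. Every Col6a2-/- library was above every WT library, as was the case for 1.18% of tested genes, and Ctss was the only member without overlap. The change was 2.17 ± 0.17 (SE) with a limma adjusted p of 2.48e-10, or a ratio of mean TPM of 5.39.

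Lgmn, the processing enzyme, had 8.42, 10.5 and 15.4 TPM as its lowest, median and highest WT value at 5 weeks. In Col6a2-/- these were 13.97, 30.8 and 41.7 TPM. In all, 7 of 8 Col6a2-/- libraries lay above the highest WT library, and female Col6a2-/- mouse 4 was the exception. The change was 1.27 ± 0.14 (limma adjusted p 1.03e-07).

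The collagenase gene Ctsk ran from 4.66 through a median of 6.51 to 11.3 TPM in WT and from 5.11 through 12.6 to 20.5 TPM in Col6a2-/- mice at 5 weeks. The change was 0.69 ± 0.17 (limma adjusted p 0.00468), with 6 of 8 Col6a2-/- libraries above all WT libraries. The carboxypeptidase gene Ctsz moved from a median of 10.5 to 18.8 TPM, a change of 0.73 ± 0.13 (limma adjusted p 0.000117). The aminopeptidase gene Ctsh (0.64 ± 0.17, limma adjusted p 0.00673) and the dipeptidyl peptidase gene Ctsc (0.60 ± 0.17, limma adjusted p 0.0126) overlapped most: for each, 4 of 8 Col6a2-/- libraries exceeded the highest WT library and 1 lay below the lowest. Ctsc was not called when only the 5-week libraries entered the fit (limma adjusted p 0.0555), the single alternative at this age in which a member was lost.

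Among the abundant, widely expressed genes, Ctsb had medians of 46.4 TPM in WT and 69.5 TPM in Col6a2-/- mice at 5 weeks, a change of 0.56 ± 0.09 (limma adjusted p 2.77e-05). Ctsl had medians of 34.6 and 45.3 TPM and changed by 0.40 ± 0.11 (limma adjusted p 0.00777). For both genes 7 of 8 Col6a2-/- libraries exceeded all WT libraries. Ctsa changed from a median of 13.2 to 17.8 TPM, by 0.37 ± 0.10 (limma adjusted p 0.00726). Ctsd had the smallest change of the family: WT libraries ran from 117 through 133 to 154 TPM and Col6a2-/- libraries from 146 through 176 to 200 TPM. That was 0.36 ± 0.08 (limma adjusted p 0.00103), and 0.35 with the level of Gm49369 added (limma adjusted p 0.00245).

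**Figure D2:**
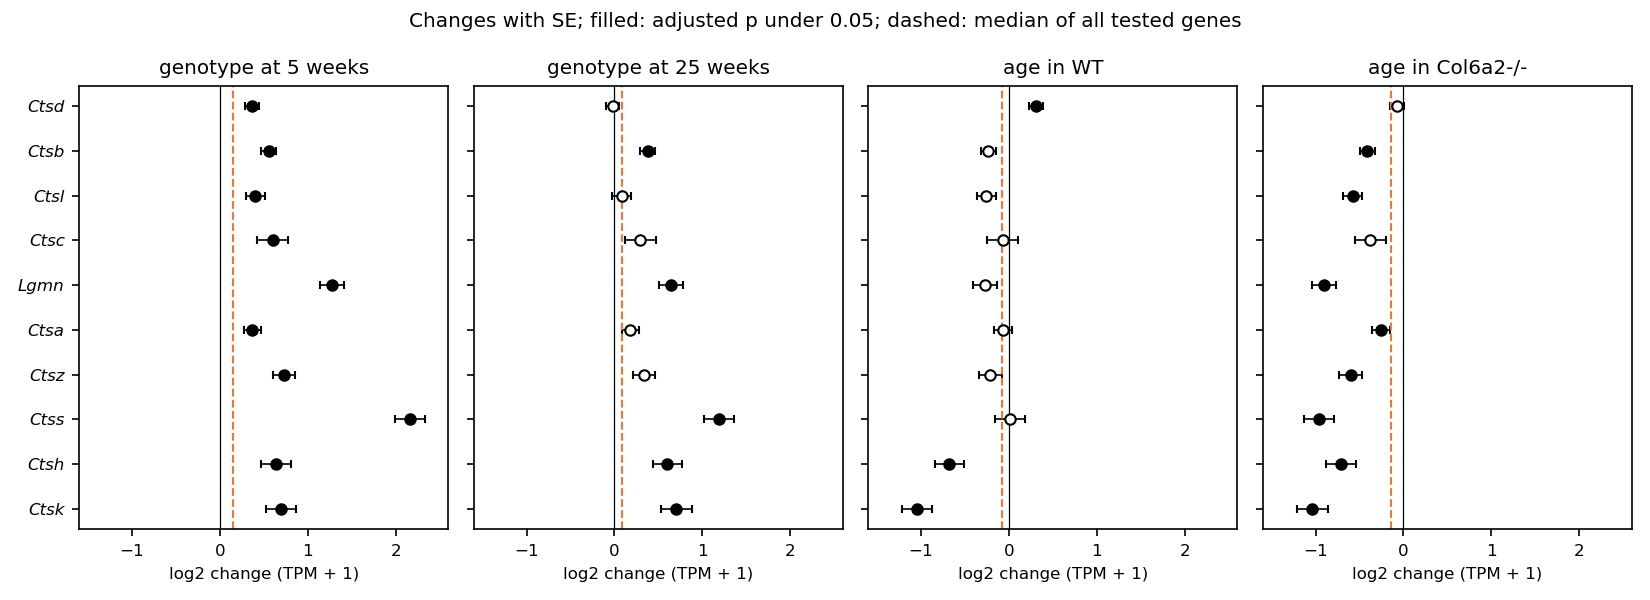
Change of each gene on the log2(TPM + 1) scale (horizontal axis) in 4 comparisons, with the SE as a bar, filled points for a limma adjusted p under 0.05 and a dashed line at the median of all tested genes. All 10 points are filled for genotype at 5 weeks, 5 for genotype at 25 weeks, 3 for age in WT and 8 for age in Col6a2-/-.

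The scale of the libraries bears on the smaller of these changes. Of the genes called at 5 weeks, 91.6% were higher in Col6a2-/-, but 47.9% after median-of-ratios scaling and 45.8% after quantile normalization, which moved the median of all genes from 0.15 to -0.01 and -0.02. All 10 proteases were still called higher after both. Across the 46 alternative settings the change of Ctsd ran from 0.16 to 0.40, that of Ctsa from 0.17 to 0.43, that of Ctsl from 0.20 to 0.47, that of Ctsb from 0.35 to 0.62 and that of Ctss from 1.97 to 2.37.

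Markers of other cell types moved with the same contrast at 5 weeks. Of 21 tested macrophage markers, 20 rose, with a median change of 0.96, and their summed level had a lowest, median and highest value of 91.5, 98.6 and 152 TPM in WT and 133, 340 and 463 TPM in Col6a2-/- mice. No macrophage marker of the list was at 0 in every library. Of 16 fibroblast and fibro-adipogenic progenitor markers 9 rose, of 11 endothelial markers 6 rose, of 8 muscle stem cell markers 6 rose and of 3 dendritic cell markers 2 rose. Of 16 muscle fibre markers 7 fell, where 2.14% of all tested genes were called lower. The part of these markers in the protease changes was not tested, and in whole muscle more cells of a type and more RNA per cell cannot be told apart.

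At 25 weeks Ctss, Lgmn, Ctsk, Ctsh and Ctsb were higher in Col6a2-/- mice, 5 of 10 genes, and none was lower, where 573 of all tested genes (4.47%) were called higher. The median change of the 10 genes was 0.36, against 0.08 over all tested genes.

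Ctss had a lowest, median and highest level of 3.36, 4.20 and 8.62 TPM in WT and 7.54, 11.9 and 16.5 TPM in Col6a2-/- mice at 25 weeks. The groups overlapped through female WT mouse 1 and female Col6a2-/- mouse 3, and the change was 1.19 ± 0.17 (limma adjusted p 0.000135). Lgmn ran from 7.36 through 8.86 to 11.4 TPM in WT and from 12.6 through 13.9 to 19.1 TPM in Col6a2-/- mice. The groups did not overlap, and the change was 0.65 ± 0.14 (limma adjusted p 0.00594).

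Ctsk also separated the genotypes at 25 weeks, with 2.14, 3.04 and 3.66 TPM as the lowest, median and highest WT value against 3.82, 5.04 and 8.05 TPM. Non-overlap of this kind held for 2 of 10 members and for 0.663% of all tested genes. The change of Ctsk was 0.70 ± 0.17 (limma adjusted p 0.0173), and its adjusted p was 0.0575 without male Col6a2-/- mouse 1. Ctsh rose by 0.60 ± 0.17 (limma adjusted p 0.0364), from a median of 4.93 to 7.58 TPM. Ctsb rose by 0.38 ± 0.09 (limma adjusted p 0.0103), from 37.9 to 51.0 TPM, and 7 of 8 Col6a2-/- libraries were above all WT libraries.

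The call of Ctsh was the least firm of these. It was lost without any 1 of 8 libraries: female WT mice 2 and 4, male WT mice 2 and 3, female Col6a2-/- mice 1 and 4, and male Col6a2-/- mice 1 and 3, all of 25 weeks. Its limma adjusted p was then 0.0648 to 0.0985.

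The other members were not called at 25 weeks. Ctsz differed by 0.34 ± 0.13 (limma adjusted p 0.124), and was called without female Col6a2-/- mouse 4 of 5 weeks (limma adjusted p 0.0357), a library that enters this comparison only through the shared estimate of the spread. Ctsc differed by 0.30 ± 0.17, Ctsa by 0.18 ± 0.10 and Ctsl by 0.08 ± 0.11, with limma adjusted p of 0.363, 0.323 and 0.731. Ctsd was level between the genotypes in the fit, at -0.02 ± 0.08 (limma adjusted p 0.915). Its median was 164 TPM in WT and 167 TPM in Col6a2-/- mice, and the ranges of 141 to 207 and 136 to 174 TPM overlapped, with 1 Col6a2-/- mouse below the WT range and 2 WT mice above the Col6a2-/- range. Of the genes called at this age 95.0% were higher in Col6a2-/-, against 51.5% with median-of-ratios scaling, 57.0% with quantile normalization and 88.1% after rescaling without mitochondrial and Rn7s genes. The estimate of Ctsd ran from -0.16 to 0.02 over the alternatives and that of Ctsl from -0.05 to 0.13, and neither was called in any of them. Ctsb was not called after that rescaling (limma adjusted p 0.0644).

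At this age 11 of 21 macrophage markers rose, with a median change of 0.57, and their summed level had a lowest, median and highest value of 60.1, 90.8 and 156 TPM in WT and 148, 178 and 267 TPM in Col6a2-/- mice. Fibroblast markers rose in 8 of 16 cases, while 0 of 11 endothelial and 0 of 16 muscle fibre markers were called. Their part in the protease changes was not tested.

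Whether the genotype change itself differed between ages was tested as an interaction. None of the 10 genes was called, against 63 of all tested genes (0.492%) and 898 at an unadjusted p under 0.05. The estimates were lowest for Ctss (-0.97 ± 0.24, limma adjusted p 0.0702) and Lgmn (-0.62 ± 0.19, limma adjusted p 0.217), followed by Ctsz (-0.39 ± 0.18, limma adjusted p 0.650) and Ctsd (-0.38 ± 0.11, limma adjusted p 0.140). For Ctsk the estimate was 0.01 ± 0.25 and for Ctsh -0.04 ± 0.24, with limma adjusted p of 0.997 and 0.994.

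The interaction of Ctss was close to the threshold and crossed it in 8 of 45 alternatives. Among them were the fits without female Col6a2-/- mouse 4 of 5 weeks (-1.11, limma adjusted p 0.00290), without female Col6a2-/- mouse 4 of 25 weeks (0.0390) and without male Col6a2-/- mouse 1 of 25 weeks (0.0476). Over all its alternatives the limma adjusted p of Ctss ran from 0.00290 to 0.148. Without the 5-week mouse Lgmn (limma adjusted p 0.00890) and Ctsd (limma adjusted p 0.0294) were called as well. That mouse had a macrophage marker sum of 133 TPM, the lowest of the 8 Col6a2-/- mice at 5 weeks.

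Within each sex at 5 weeks the estimates had the same sign for all 10 genes. In females Ctss (2.23), Lgmn (1.33), Ctsk (0.85), Ctsz (0.81), Ctsb (0.55), Ctsd (0.44) and Ctsa (0.43) were called, 7 of 10 against 12.3% of all tested genes called higher. In males Ctss (2.11), Lgmn (1.21), Ctsz (0.65) and Ctsb (0.56) were called, 4 of 10 against 4.55%. Of the calls 95.6% were higher in females and 90.4% in males, against 52.0% and 53.2% with median-of-ratios scaling. The count in females fell to 4 without Col6a2-/- mouse 2 and rose to 10 without Col6a2-/- mouse 4. These were the mice with the highest and the lowest Ctss of that group, at 34.5 and 11.4 TPM. Ctsa was also lost without any 1 WT female or Col6a2-/- mouse 1, and Ctsk without WT mouse 1 or 3 or Col6a2-/- mouse 1. With only the libraries of the contrast, Ctsa, Ctsb, Ctsd, Ctsk and Ctsz were not called in females. In males the count was 3 to 6 with a single library left out. Ctsz was lost there without WT mouse 2, 3 or 4 or Col6a2-/- mouse 1, 2 or 3. Its limma adjusted p in males reached 0.145 over all alternatives. Of the 4 female Col6a2-/- mice, all were above all WT females for Ctsb, Ctsd, Ctss and Lgmn, where 8.53% of tested genes had such a separation. In males Ctsb, Ctsk, Ctsl, Ctss, Ctsz and Lgmn separated in this way, against 9.32% of tested genes.

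At 25 weeks Ctss (1.55), Ctsh (0.89), Lgmn (0.82) and Ctsb (0.51) were called in males, 4 of 10 against 2.91% of tested genes called higher. Of those calls 96.1% were higher, against 54.2% with median-of-ratios scaling. That count was 1 without male Col6a2-/- mouse 1, male WT mouse 2 or male WT mouse 3, and 2 without male Col6a2-/- mouse 3. In females 0 of 10 were called, and so was 1 gene in all by limma (0.0078%), while 621 genes had an unadjusted p under 0.05. All 4 female Col6a2-/- mice were nevertheless above all WT females for Ctsb, Ctsk and Lgmn (3.80% of tested genes), and all 4 males above all WT males for Ctsb, Ctsh, Ctsk, Ctss, Ctsz and Lgmn (13.9%). The largest female estimate was again that of Ctss, at 0.84 ± 0.24 with a limma adjusted p of 0.447.

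Genotype by sex gave 0 of 10 calls, with estimates from -0.02 for Ctsk to 0.29 for Ctss, and 2 genes in all by limma (0.0156%), with 206 at an unadjusted p under 0.05. Sex itself gave 0 of 10 calls where 391 of all tested genes (3.05%) were called and 1689 had an unadjusted p under 0.05. Of the sex calls 61.4% were higher in males, against 84.2% after rescaling without mitochondrial and Rn7s genes. Ctsl had the lowest estimate, -0.20 ± 0.08 male minus female (limma adjusted p 0.199), and it was called after median-of-ratios or quantile scaling.

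Age was compared within each genotype, and the test of the difference between these changes is the interaction given above. In WT mice 3 of 10 genes were called: Ctsd rose, and Ctsk and Ctsh fell. Of all tested genes 4.47% were called higher and 15.3% lower at 25 weeks. The share of calls that were higher was 22.6%, against 50.2% with median-of-ratios scaling, 51.4% with quantile normalization and 50.8% after rescaling without mitochondrial and Rn7s genes, and these 3 genes were called in the same direction with each.

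Ctsd rose in WT from a median of 133 to 164 TPM, a change of 0.31 ± 0.08 (limma adjusted p 0.00460), and of 0.30 with Gm49369 added (limma adjusted p 0.00896). Ctsk fell by 1.05 ± 0.17 (limma adjusted p 7.34e-05), from a lowest, median and highest value of 4.66, 6.51 and 11.3 TPM to 2.14, 3.04 and 3.66 TPM. All 8 older WT mice were below all 8 younger ones, as in 2.30% of tested genes. Ctsh fell by 0.68 ± 0.17 (limma adjusted p 0.00502), from a median of 6.38 to 4.93 TPM. Ctsb was near the threshold in WT, at -0.24 ± 0.09 (limma adjusted p 0.0524), and was called lower in 16 of 46 alternatives, with limma adjusted p from 0.00326 to 0.511 over all of them. In 7 of these 16, with limma adjusted p of 0.0272 to 0.0494, a single library was left out: male WT mouse 3, female Col6a2-/- mice 2 and 4 or male Col6a2-/- mouse 1 of 5 weeks, or female WT mouse 1 or male Col6a2-/- mice 1 and 2 of 25 weeks. Ctss differed by 0.01 ± 0.17 between the ages in WT (limma adjusted p 0.967), with a median of 4.20 TPM at both.

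In Col6a2-/- mice 8 of 10 genes fell with age, where 28.8% of all tested genes were called lower. Of the calls 15.8% were higher, against 50.5% with median-of-ratios scaling and 53.2% with quantile normalization, after which Ctsa was not called. Ctsk fell by 1.04 ± 0.17, Ctss by 0.96 ± 0.17, Lgmn by 0.90 ± 0.14 and Ctsh by 0.71 ± 0.17, with limma adjusted p of 3.98e-05, 9.31e-05, 1.03e-05 and 0.00177. Ctsz, Ctsl and Ctsb fell by 0.60, 0.58 and 0.41. The estimate of Ctsb ran from -0.48 to -0.22 over the alternatives, and it was called lower in 46 of 46. Ctsa fell by 0.26 (limma adjusted p 0.0442), a call that was lost in 15 of 46 alternatives, 9 of them leaving out a single Col6a2-/- library: female mice 1 and 2 or male mice 1, 2 and 3 of 5 weeks, or female mice 1 and 2 or male mice 2 and 4 of 25 weeks, with limma adjusted p of 0.0542 to 0.126. Its estimate was -0.07 with median-of-ratios scaling and -0.13 with quantile normalization. Ctsd differed by -0.07 ± 0.08 (limma adjusted p 0.479) and Ctsc by -0.38 ± 0.17 (limma adjusted p 0.0941). Ctsc was called without female mouse 4 (limma adjusted p 0.0157) or male mouse 4 (limma adjusted p 0.0217) of 5 weeks. Macrophage markers fell in 18 of 21 cases in the same contrast, with a median of -0.68, and in 4 of 21 in WT, with a median of -0.23. Fibroblast markers fell in 9 of 16 cases in WT, with a median of -0.45, and in 7 of 16 in Col6a2-/-, where 1 rose. Their summed level had a lowest, median and highest value of 1058, 1213 and 1843 TPM at 5 weeks and 513, 801 and 951 TPM at 25 weeks in WT, and of 923, 1768 and 2592 TPM and then 962, 1062 and 1462 TPM in Col6a2-/- mice. Muscle stem cell markers fell in 5 of 8 cases in WT and 7 of 8 in Col6a2-/-, Schwann cell markers in 3 of 6 and 6 of 6, and endothelial markers in 3 of 11 and 6 of 11. Tenocyte markers fell in 4 of 9 cases in each genotype, and muscle fibre markers in 4 of 16 in WT and 3 of 16 in Col6a2-/-. The part of these markers in the protease changes was not tested.

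To separate members that follow the muscle as a whole from members that follow macrophages, the mean of each of the 8 groups was removed from log2(TPM + 1), and the remaining deviations of each gene were compared with those of a macrophage score over the 32 libraries. The score was the mean log2(TPM + 1) of the 21 tested macrophage markers, none of which is a member. Pearson's r was 0.94 for Ctss, 0.91 for Ctsz, 0.89 for Lgmn, 0.86 for Ctsc and 0.84 for Ctsh, then 0.78 for Ctsk, 0.76 for Ctsa, 0.74 for Ctsb and Ctsl, and 0.62 for Ctsd. Spearman's rho ran from 0.58 for Ctsd to 0.92 for Ctss. Over the 10 correlations the Benjamini-Hochberg adjusted permutation p was 2.5e-05 to 0.00218 for Pearson's r, and 1e-05 is the smallest unadjusted p that 100000 shuffles can give.

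A member was termed macrophage-like where r was at least 0.5 and its adjusted p was under 0.05. In addition, none of the fibroblast, endothelial and muscle fibre scores could have a higher r. Scores of other cell types were not compared. These criteria held for Ctss, Ctsz, Lgmn, Ctsc, Ctsa and Ctsb. The share of all tested genes that meet them was not determined, so the term is a description. Ctsh, Ctsk and Ctsl had a higher r with the fibroblast score, at 0.87, 0.79 and 0.78, and Ctsd had a higher r with the endothelial score, at 0.71. No member had its highest r with the muscle fibre score, which ranged from 0.15 for Ctss to 0.50 for Ctsd. Ctsd had the lowest r with the macrophage score and the highest with the fibre score.

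**Figure D3:**
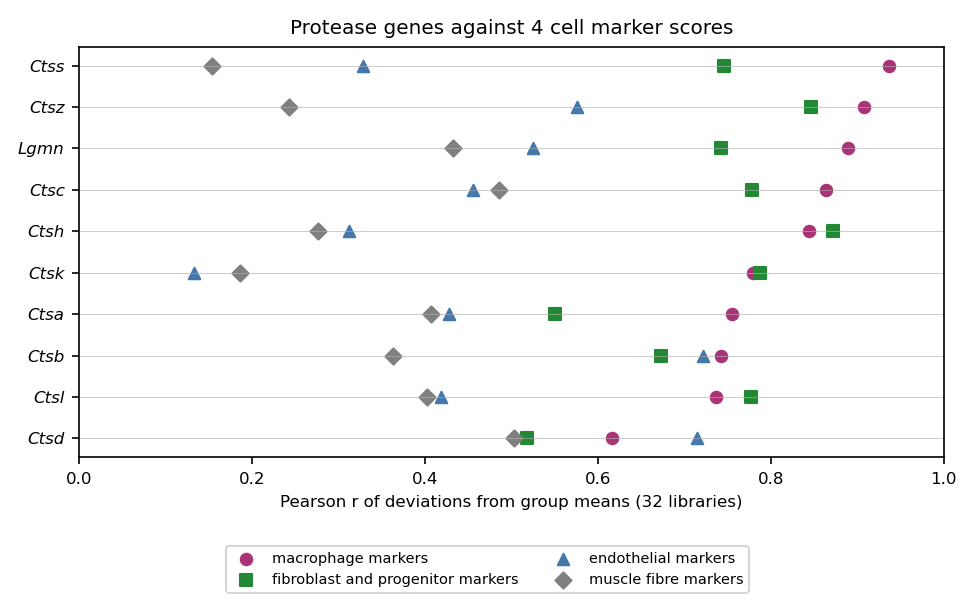
Pearson r (horizontal axis) between each gene and 4 cell marker scores over 32 libraries, after removal of the 8 group means. The macrophage score has the highest r for 6 of the 10 genes, the fibroblast score for Ctsh, Ctsk and Ctsl, and the endothelial score for Ctsd.

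These classes are close calls for part of the family. The macrophage score had r = 0.88 with the fibroblast score and 0.41 with the endothelial score. Ctsb had r = 0.74 with the macrophage score and 0.72 with the endothelial score. Leaving out the 2 libraries farthest from the median macrophage score, female Col6a2-/- mice 2 and 4 of 5 weeks, lowered r for Ctss to 0.90, for Ctsz to 0.81, for Ctsb to 0.58 and for Ctsd to 0.46. Ctsb then had a higher r with the endothelial score, 0.63, and was no longer macrophage-like, while the class of the other 9 genes stayed as it was. Without all 4 female Col6a2-/- libraries of 5 weeks the same 5 genes (Ctss, Ctsz, Lgmn, Ctsc and Ctsa) met the criteria on r, and the muscle fibre score had the highest r for Ctsd, at 0.64.

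The relation was also examined within each genotype and age, over 8 mice with the sex means removed. In Col6a2-/- mice of 5 weeks r lay between 0.90 for Ctsc and 0.99 for Ctsz for all 10 genes. The number of genes with at least 1 TPM also varied most in these mice, from 10903 to 12877 with a median of 11886, against 10905 to 11946 with a median of 11294.5 in WT mice of that age. Within each sex of these Col6a2-/- mice, the order of the 4 libraries by that number was their order by the summed TPM of the 10 proteases, and its part in these correlations was not tested. In WT mice of that age r ran from 0.004 for Ctsd to 0.93 for Ctsh, and 2 of 10 genes had an adjusted exact permutation p under 0.05 for Pearson's r over the 40 correlations, Ctsh (0.0449) and Ctss (0.0475), with 0.158 and 0.278 for Spearman's rho. At 25 weeks Ctsc (r = 0.98) and Ctss (0.90) passed in WT, both with an adjusted exact permutation p of 0.0139 for Pearson's r. In Col6a2-/- mice of 25 weeks Ctss (0.96), Ctsz (0.95), Ctsc (0.88), Lgmn (0.86) and Ctsl (0.79) passed, with adjusted exact permutation p from 0.0139 to 0.0434. By Spearman's rho, the adjusted exact permutation p was under 0.05 for 0 of 10 genes in WT at 5 weeks, Ctsc and Ctss in WT at 25 weeks, 8 of 10 in Col6a2-/- at 5 weeks, and Ctss, Ctsz, Ctsc and Lgmn in Col6a2-/- at 25 weeks. Ctss passed in all 4 sets of mice by Pearson's r, but by Spearman's rho its adjusted exact permutation p was 0.278 in WT and 0.0781 in Col6a2-/- mice at 5 weeks. Ctsd passed by Pearson's r in Col6a2-/- mice of 5 weeks (r = 0.91, adjusted exact permutation p 0.0198) and by Spearman's rho in no set (0.0556 there). Whether r differed between the sets was not tested.

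**Figure D4:**
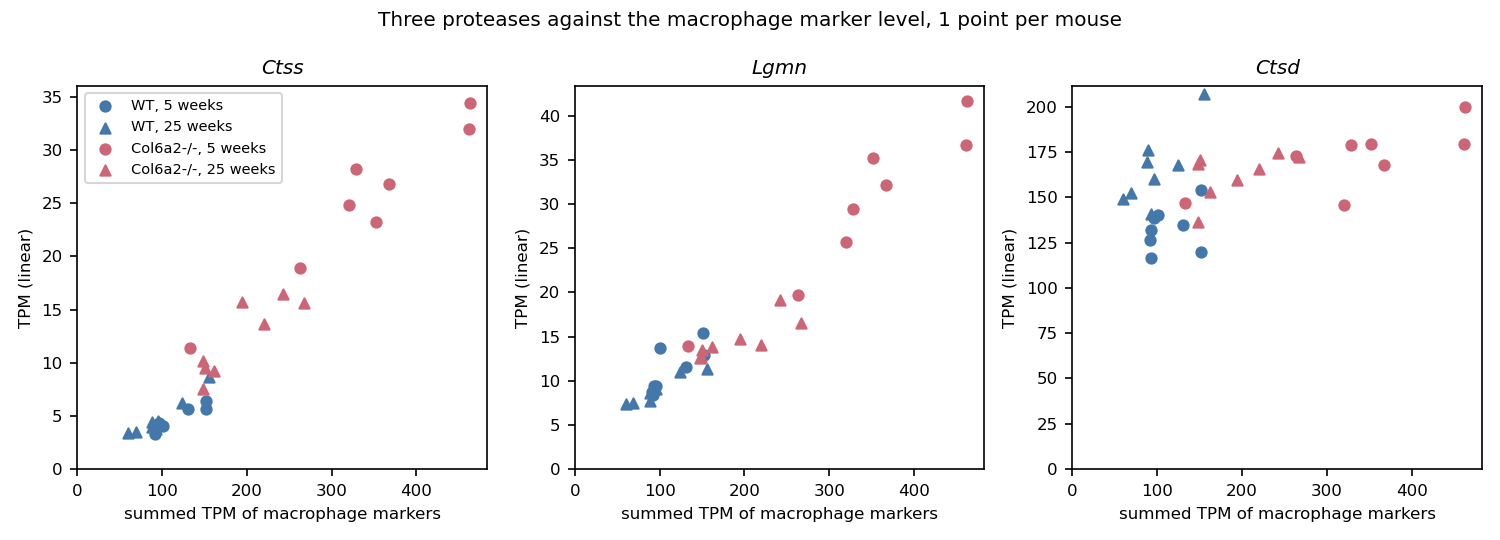
Level of Ctss, Lgmn and Ctsd in TPM (vertical axes, from 0) against the summed TPM of the macrophage markers (horizontal axis), 1 point per mouse, with WT in blue, Col6a2-/- in red, circles for 5 weeks and triangles for 25 weeks. Over all groups together, with the group means not removed, Ctss and Lgmn climb with the marker sum from 60.1 to 463 TPM. Ctsd stays between 117 and 207 TPM, although its r with the macrophage score was 0.91 within Col6a2-/- mice of 5 weeks.

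Among 5395 genes with a mean of at least 5 TPM, the genes most like each member were ranked by Pearson's r of the same deviations over 32 libraries. These are descriptions, since all points share the same libraries. For Ctss they were Lyz2 (r = 0.94), which encodes lysozyme of macrophages, C1qb (0.93), a complement component, and H2-Ab1 (0.93), a class II antigen chain. For Ctsd the closest was Psap (0.92), the precursor of the saposins that activate lipid hydrolases in the lysosome. Ppt1, a lysosomal thioesterase, was closest to both Ctsc (0.93) and Lgmn (0.93). Scpep1, a serine carboxypeptidase, was among the closest to Ctsz (0.93), after the translation factor gene Eef1a1 (0.95) and the actin-capping gene Capg (0.93). Sparc, a matrix protein of connective tissue cells, was closest to Ctsk (0.91), and Tgfbi, a matrix protein induced by TGFβ, to Ctsl (0.89). The closest genes to Ctsb and Ctsh were Eif3l (0.88), a translation factor, and Thyn1 (0.93).

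The rest of the lysosome was read from pathway lists that do not hold the 10 proteases. The counts at 5 weeks stand against 23.2% of all tested genes called higher and a median change of 0.15. At that age 27 of 49 lysosomal hydrolases and activators rose and 0 fell, with a median change of 0.33. Lipa (0.81), the acid lipase, Grn (0.92), the granulin precursor, and Galns (0.42), a sulfatase, had the smallest limma adjusted p, from 3.98e-06 to 8.86e-05. Of 27 lysosomal membrane proteins 11 rose, with Cd68 (1.30) and Laptm5 (1.17), both typical of macrophages, and Cd63 (0.60) in front and a median of 0.20. Lamp2 rose by 0.40 ± 0.11 (limma adjusted p 0.00825), whereas Lamp1, the other major membrane glycoprotein, stood at 0.15 ± 0.08 (limma adjusted p 0.150). Shares near that of all tested genes were found for the vacuolar proton pump and for enzyme sorting. Of 18 subunits and partners of the pump 5 rose (median 0.21), led by Tcirg1 (0.68), Atp6v1a (0.56) and Atp6ap2 (0.51). Of 17 sorting genes 5 rose (median 0.21), among them the mannose 6-phosphate receptor genes Igf2r (0.39) and M6pr (0.31), and 1 fell, Sorl1 (-0.23).

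At 25 weeks, when 4.47% of all tested genes were called higher with a median change of 0.08, the calls were 6 of 49 hydrolases (median 0.18), 4 of 27 membrane proteins (median 0.09), 1 of 18 pump genes and 2 of 17 sorting genes, all higher. Gusb (0.45), Lipa (0.43) and Gm2a (0.42) led the hydrolases, and Cd68 (0.86), Laptm5 (0.72) and Lamp2 (0.37) the membrane proteins. Genotype by age called 0 genes of these 4 lists with limma.

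Among regulators of lysosomal genes 6 of 17 rose at 5 weeks, with a median of 0.18 against 0.15 over all tested genes, led by Lamtor1 (0.29), Fnip2 (0.34) and Mtor (0.23), and at 25 weeks 0 of 17 were called. Tfe3 rose at 5 weeks by 0.33 ± 0.11 (limma adjusted p 0.0354), from a median of 1.59 to 2.43 TPM. Tfeb was not called and had a negative estimate at both ages, -0.26 ± 0.11 (limma adjusted p 0.0839) and -0.32 ± 0.11 (limma adjusted p 0.105). Mitf, a relative of both, differed by 0.14 ± 0.09 at 5 weeks (limma adjusted p 0.265). Spi1, which encodes PU.1 and belongs to the macrophage list, rose at 5 weeks by 0.75 ± 0.14 (limma adjusted p 0.000200), from a median of 0.81 to 1.99 TPM.

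Genes of cystatins and serpins, which are protease inhibitors, were examined as well. Whether each product acts on the proteases described here was not tested. At 5 weeks 4 of 6 tested genes of this list were higher, with a median of 0.53. At 25 weeks 2 of 6 were higher, with a median of 0.29, against 23.2% and 4.47% of all tested genes at the 2 ages. The serpin gene Serpinb1a rose by 1.83 ± 0.19 at 5 weeks and 0.98 ± 0.19 at 25 weeks, with limma adjusted p of 6.32e-08 and 0.00305. Cstb, which encodes the intracellular inhibitor cystatin B, rose by 0.84 ± 0.12 and 0.52 ± 0.12, with limma adjusted p of 8.23e-06 and 0.0122. Serpinb6a, also a serpin gene, rose by 0.92 at 5 weeks (limma adjusted p 1.43e-06). Cst3, the gene of secreted cystatin C and the most abundant of them, was not called: its medians were 152 TPM in WT and 175 TPM in Col6a2-/- mice at 5 weeks, a difference of 0.22 ± 0.10 (limma adjusted p 0.0955).

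The class II antigen genes, whose invariant chain is the best-known substrate of cathepsin S, were higher in Col6a2-/- mice. At 5 weeks 7 of 7 rose with a median of 1.99, and at 25 weeks 6 of 7 with a median of 0.79, against 23.2% and 4.47% of all tested genes. In males at 25 weeks, where Ctss was called, 1 of 7 was called higher, against 2.91% of all tested genes. Cd74, the invariant chain gene, ran from 11.05 through 17.95 to 26.8 TPM in WT and from 42.7 through 77.1 to 112 TPM in Col6a2-/- mice at 5 weeks, and the groups did not overlap. Its change was 1.99 ± 0.23 at 5 weeks and 0.81 ± 0.23 at 25 weeks, with limma adjusted p of 5.66e-07 and 0.0432. In WT mice 4 of these 7 genes rose with age (median 0.77), against 4.47% of all tested genes, and Ctss was not called. In Col6a2-/- mice 1 of 7 fell with age (median -0.40), against 28.8% of all tested genes, and Ctss fell.

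**Figure D5:**
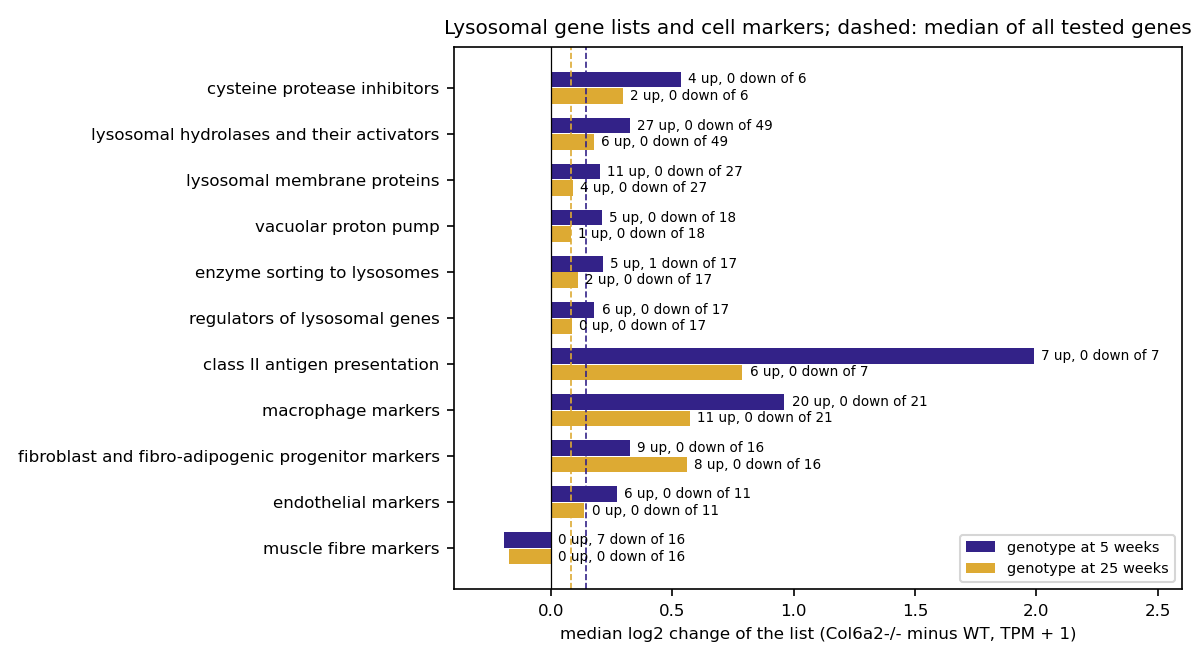
Median log2 change, Col6a2-/- minus WT on the log2(TPM + 1) scale (horizontal axis), of 11 gene lists at 5 weeks (dark bars) and 25 weeks (yellow bars), with the number of genes called in each direction and dashed lines at the medians of all tested genes, 0.15 and 0.08. The class II and macrophage lists have the longest bars, and the lysosomal lists lie between 0.18 and 0.33 at 5 weeks.

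Of 16 further cathepsin genes 3 passed the filter, 9 were at 0 in every library, and 0 of 3 were called by limma at either age. Those tested were Ctsf, with a median of 7.41 TPM in WT at 5 weeks and a change of 0.18 ± 0.07 (limma adjusted p 0.0744), Ctso at 2.90 TPM with 0.16 ± 0.09 (limma adjusted p 0.179), and Tinagl1, a catalytically inactive relative, at 7.70 TPM with 0.34 ± 0.14 (limma adjusted p 0.0673).

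Since Ctsk is best known from osteoclasts, markers of osteoclasts and giant cells were read as well. Of 9 such genes 3 passed the filter and limma called 0 of these for genotype at either age. Mmp9, a gelatinase gene, rose with age in Col6a2-/- mice by 0.46 ± 0.12 (limma adjusted p 0.00548). Ocstamp and Oscar stayed under 0.1 TPM in every library, and Acp5 differed by 0.50 ± 0.31 at 5 weeks (limma adjusted p 0.227). Of 8 neutrophil markers S100a8 and S100a9 were tested and neither was called at either age, with a median change of 0.30 at 5 weeks and 0.42 at 25 weeks. Ly6g was at 0 in all libraries, and the summed lymphocyte markers reached at most 3.57 TPM.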

How the data were processed

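Libraries were made from total RNA of frozen quadriceps sections with a TruSeq RNA kit and sequenced as 150-base pairs, per the labels' protocols. Per the submitters' processing notes, FastQC, MultiQC, Trimmomatic, HISAT2, SAMtools and StringTie and the build GRCm38 (mm10) were used. Which versions, gene models and strand setting applied is not given in the sources used here. The TPM values were computed by the authors and deposited as 1 table per library, with FPKM values (scaled for length and depth) and a coverage signal (average depth of reads along the gene), as the file headers name it. No counts were used, so the intervals of counting error cannot be given.

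TPM was summed per gene ID. Genes reaching 1 TPM in 4 or more libraries were analysed as log2(TPM + 1), which understates changes of low genes, with limma 3.58.1 in R 4.3.3 (lmFit, eBayes with trend, all 32 libraries, 8 group means, no block, 11 contrasts, two-sided, Benjamini-Hochberg). Correlations and summaries used Python 3.11.15 with pandas 2.3.3, numpy 2.4.6 and scipy 1.17.1, and plots matplotlib 3.10.9. For correlations, deviations were shuffled within groups 100000 times, or in all 576 ways within the sexes for sets of 8 mice. The limma script was tested on simulated data.

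The 10 genes and all lists were chosen with earlier results of these data known. Named beside the 10 genes were Col6a2, up to 3 called genes per list with the smallest adjusted p, partners of the proteases known from textbooks, and up to 3 genes most alike to each. Ctsf, Ctso, Tinagl1, Acp5, Ocstamp, Oscar, S100a8, S100a9 and Ly6g were named after their values were seen. Alternatives changed the pseudocount, filter, scaling, unit, trend, weights, block and libraries. Leaving out the 2 libraries farthest in macrophage score, leaving out the 4 female Col6a2-/- libraries of 5 weeks, adding Gm49369 to Ctsd, and the exact p within sets of 8 mice were chosen after seeing the data. No pair of libraries was identical.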

Additional observations from a re-analysis of the deposited data

Results flagged for a closer look

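Within the 8 groups of 4 mice, each of the 10 genes was checked for a library that stood apart from the other 3 by Dixon's criterion, 80 groups of values in all. Chance alone marks about 1 in 20 groups, and 4 were marked, none of them in the Col6a2-/- mice of 5 weeks. Ctsc was 19.8 TPM in male WT mouse 1 at 5 weeks, above the 14.4 to 15.1 TPM of the others. Ctsh was 4.88 TPM in female WT mouse 2 at 25 weeks, below 5.64 to 5.78 TPM. Ctsl was 29.3 TPM in female WT mouse 4 at 25 weeks, below 33.7 to 34.5 TPM. Ctsl was 40.4 TPM in female Col6a2-/- mouse 4 at 25 weeks, above 32.9 to 33.6 TPM.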

How the results depend on the processing

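No call of a protease changed direction under any alternative. At 5 weeks all 10 stayed called without any single library. Leaving out 1 library in turn gave 3 to 6 calls for genotype at 25 weeks, 0 to 3 for genotype by age, 4 to 10 in females and 3 to 6 in males at 5 weeks, 1 to 6 in males and 0 in females at 25 weeks, 3 to 4 for age in WT, 7 to 9 for age in Col6a2-/-, and 0 for sex and for genotype by sex. With array weights the calls were 3 for genotype by age, 6 for age in WT, 8 in males at 5 weeks and 7 in males at 25 weeks. Without both libraries farthest in macrophage score they were 2 for genotype by age, 6 for age in WT and 7 in males at 5 weeks. Genotype by age gave 2 calls with median-of-ratios scaling, 3 with quantile normalization and 1 after rescaling without mitochondrial and Rn7s genes, and sex gave 1 with each of the first 2. That rescaling gave 8 in males at 5 weeks and 2 in males at 25 weeks. Without a filter there were 3 at 25 weeks and 2 in males at 25 weeks, with more genes adjusted for. With the libraries of the contrast alone there were 5 for age in WT and 2 in females at 5 weeks, with fewer samples. Other causes were not tested. Among alternatives for the correlations with the macrophage score, the r of a single member was counted as unchanged 59 times and as moved 11 times. Only macrophage-like members could be counted as moved. Ctsd, Ctsh, Ctsk and Ctsl were counted as unchanged by rule, although r of Ctsd was 0.62 over all libraries and 0.004 within WT mice of 5 weeks. The 59 is therefore no measure of stability for these genes. The genes called in the whole table were 3253 at 5 weeks (1553 to 4749 over all alternatives), 603 at 25 weeks (270 to 1967), 63 for genotype by age (32 to 241), 1648 in females (104 to 3865) and 645 in males (295 to 1371) at 5 weeks, 1 in females (1 to 33) and 388 in males (55 to 2437) at 25 weeks, 2536 for age in WT (1441 to 4166), 4389 for age in Col6a2-/- (2263 to 5523), 391 for sex (258 to 925) and 2 for genotype by sex (0 to 5).

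Replicate numbers are shared between groups, and the main fit did not pair the mice by them. Same-numbered libraries of different groups had a mean r of 0.03 in their deviations, with 35 of 112 pairs over 0.1. For differently numbered libraries the mean r was -0.01, with 65 of 336 pairs over 0.1. In all, 10 of 32 libraries were closest to a library of their own number. Whether the numbers mark a pairing was not tested. With the replicate block the calls stayed at 10, 5, 0, 7, 4, 0, 4, 8, 0 and 0 for all comparisons but age in WT, where they were 4. Depth is known only as a relative value, and the lowest coverage of any of the 10 genes was 4.28, for Ctsh.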
